A study of Caenorhabditis elegans with 205 samples.

Results

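ASER is the right-hand cell of the ASE pair, the main salt-sensing neurons of the nematode Caenorhabditis elegans. It was represented by 4 libraries, those whose count columns carry the name ASER and a number, in a series of 53 neuron classes isolated by fluorescence-activated cell sorting. The series held 180 libraries from 46 classes whose labels have an entry for treatment and 25 libraries from 7 classes without such an entry. Having the entry does not mean that the worms were treated, and the entries of classes other than ASER and ASEL are not listed here. The 4 libraries, ASERr144, ASERr145, ASERr146 and ASERr147, were compared with the unweighted mean of the other 52 classes, with the other 9 amphid sensory classes ADL, AFD, ASEL, ASG, ASI, ASK, AWA, AWB and AWC (37 libraries), and with ASEL, the left-hand partner (3 libraries). Per the labels, worms grew on 8P nutrient agar with Escherichia coli NA22, and the ASER and ASEL worms were untreated. The labels give no strain, genotype, age or sorting reporter for any class, so the gene whose promoter marked ASER for sorting is not known here, and a high level of that gene would follow from the sort. They do not say whether libraries of a class came from separate cultures or how many animals were pooled, so p-values measure the spread between these libraries. All 3 comparisons use the same 4 ASER libraries and are not independent of one another.

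ASE neurons detect salts through receptor guanylyl cyclases in their cilia. These enzymes make cyclic GMP (cGMP), which opens cyclic-nucleotide-gated channels. The zinc finger factor CHE-1 specifies both ASE neurons, and a feedback loop of regulators then gives the left and the right cell different receptor cyclases. ASER is known for sensing chloride and for salt-concentration memory, in which insulin and diacylglycerol signalling take part.

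Total counts in the ASER libraries ran from 6566964 to 10352945, against a median of 4692490 over all libraries. Ribosomal RNA took 45.01% to 66.996% of the ASER counts, leaving 2442684 to 3611013 counts on other genes. Levels are given as counts per 1000000 of the scaled library size (CPM), and 3 counts, the limit that a count of 0 allows, equalled 0.899 to 1.13 CPM in ASER. Pearson's r of log2(CPM + 1) between ASER libraries had a median of 0.959 (range 0.932 to 0.966), and each ASER library was nearest to another ASER library. The class next to them was ASEL, with a median r of 0.913, followed by BAG at 0.889 and IL1 at 0.875, while the median over the other 52 classes was 0.834. The labels' protocols name the same library kit for all libraries, which were counted in one table. ASERr147 stood somewhat apart. Below, the 4 ASER values are always given in the order of the libraries named above.

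The summed level of 40 marker genes of muscle, intestine, hypodermis, germline, glia, pharynx and coelomocytes was 2803, 3339, 2566 and 5374 CPM in the 4 ASER libraries. The median over the other classes was 12188 CPM, and ASER ranked 53 of 53 classes. Muscle genes made up most of the sum, chiefly unc-54, a muscle myosin gene whose 3′ end is common in reporters, at 866 to 1748 CPM in ASER. ASER ranked 53 of 53 for muscle, 48 for germline, 42 for intestine, 40 for hypodermis, 29 for pharynx, 27 for glia and 24 for coelomocytes. ASERr147 held the highest value of the 4 libraries for 26 of the 40 genes. The ASEL sums, from 11362 to 17358 CPM, lay above every ASER library, but without the muscle genes ASEL held 2285 to 2948 CPM and ASER 1033, 1468, 1060 and 2432 CPM, so that ASERr147 lay within the ASEL range. In such bulk samples, fewer cells of a type and less RNA per cell cannot be told apart. The part of these transcripts in the results below was not tested.

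The sorted cells carried the ASER receptor genes. gcy-22 (WBGene00001547, chromosome V, 20820118 to 20825062, minus strand), a receptor cyclase required for ASER responses to several ions, was at 1233, 675, 642 and 661 CPM. gcy-5 (WBGene00001532, chromosome II, 10310400 to 10316219, minus strand), the classical ASER reporter gene, was at 87.8, 60.2, 47.6 and 28.2 CPM. For gcy-22 all 4 ASER values exceeded the highest value in the other 52 classes, 281 CPM. For gcy-5 the highest value outside ASER was 40.7 CPM, above ASERr147 and below the other 3 ASER libraries. The next class means were 120 CPM for gcy-22 in ASEL and 11.6 CPM for gcy-5 in RIA, a head interneuron. ASERr144 held the highest level of both genes, and for gcy-22 it stood far above the other 3 libraries.

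**Figure D1:**
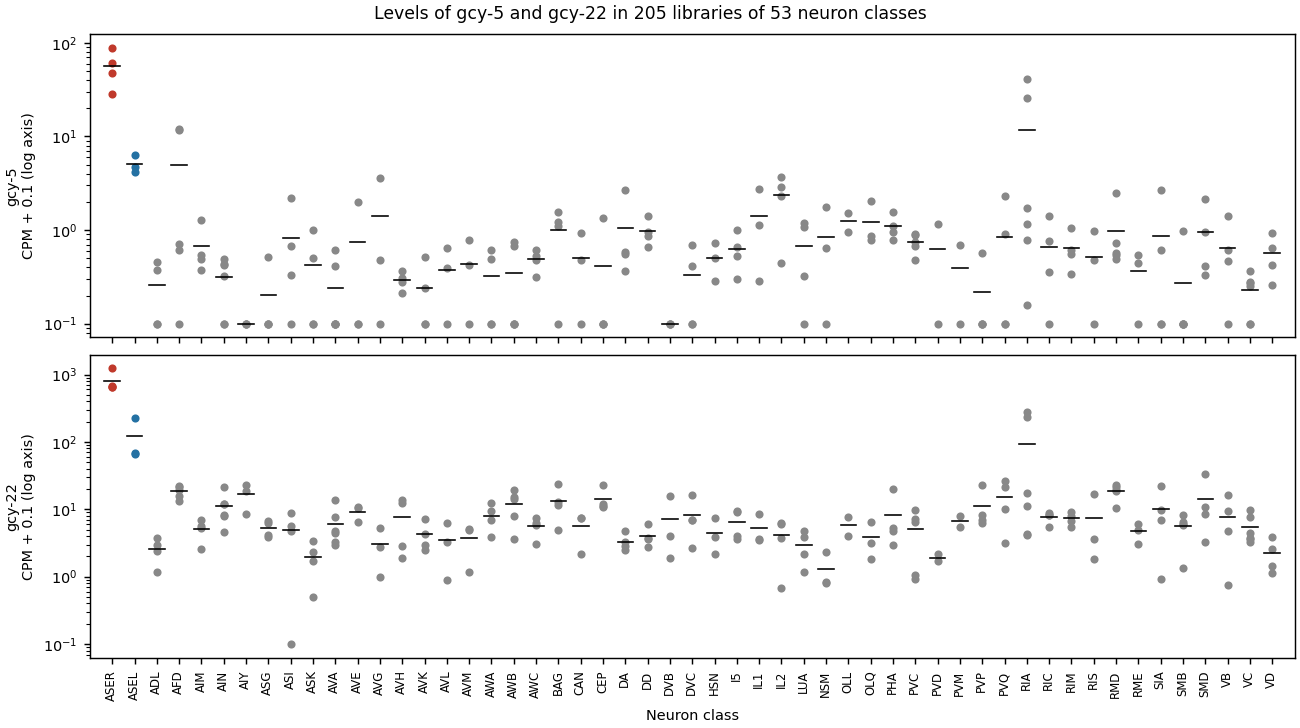
Levels of gcy-5 (top) and gcy-22 (bottom) in every library, by neuron class, as CPM + 0.1 on a log axis; points are libraries, black bars are class means, red marks ASER and blue marks ASEL. The 4 ASER libraries hold the highest gcy-22 levels of all classes, and of the other classes only RIA has a library, RIAr71, whose gcy-5 level reaches the ASER range.

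Of the 6 RIA libraries, RIAr71 and RIAr73 stood apart in the genes that mark ASER. RIAr71 held 281 CPM of gcy-22, 44.1 CPM of gcy-4, 40.7 CPM of gcy-5 and 144.7 CPM of gcy-3. RIAr73 held 237, 28.1, 25.3 and 32.2 CPM of the same 4 genes. In the other 4 RIA libraries gcy-22 did not exceed 17.2 CPM, gcy-3 and gcy-4 did not exceed 2.40 CPM and gcy-5 did not exceed 1.64 CPM. Their source was not tested. Leaving out both RIA libraries, an alternative chosen after seeing the data, gave 2963 genes higher and 792 lower in ASER than in the other 52 classes, against 2951 and 794 with them. No gene named below changed its call against the other 52 classes without these libraries.

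Against the mean of the other 52 classes, 2951 of 20427 tested genes (14.4%) were higher in ASER and 794 (3.89%) were lower at an adjusted p under 0.05 in edgeR's quasi-likelihood test. Against the other 9 amphid classes, 1568 (7.68%) were higher and 442 (2.16%) lower. Against ASEL, with 10059 genes tested in those 7 libraries alone, 616 (6.12%) were higher and 530 (5.27%) lower. The fold changes are differences of mean log2 levels over classes, and the median over all tested genes was -0.25 against the 52 classes, -0.21 against the 9 and -0.02 against ASEL. Among the 2951 higher genes, 38.9% had no count in at least one other class, where the fitted fold change depends on the prior count and is no bound. With all other libraries taken as one group, which weights classes by their libraries and compares with their arithmetic mean, 688 genes (3.64%) were higher and 0.789% lower. The count in that fit stands beside each list below whose count of higher genes it moved by more than 1.5 times. The background of those counts is the 3.64% of that fit. Leaving out any 1 ASER library reduced the 794 lower genes to between 329 and 484.

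The receptor guanylyl cyclases of the right cell were high. All 6 genes known to be biased to the right cell, gcy-1, gcy-2, gcy-3, gcy-4, gcy-5 and gcy-22, were higher in ASER than in the other 52 classes and than in the other 9 amphid classes, beside backgrounds of 14.4% and 7.68% of tested genes. Against the 52 classes, 5 were higher with limma-voom and 4 with the other libraries as 1 group, beside 10.9% and 3.64% of tested genes. gcy-4 (WBGene00001531, chromosome II, 10304139 to 10308826, minus strand), which acts with gcy-22 in salt responses, was at 148, 61.1, 69.9 and 77.97 CPM. gcy-3 (chromosome II, 9502757 to 9507281, minus strand) was at 97.9, 31.8, 50.4 and 41.4 CPM. All ASER libraries were above every ASEL library for both genes, since ASEL held at most 5.77 CPM of gcy-4 and 2.31 CPM of gcy-3. The same order was found for 15.4% of the genes tested against ASEL. The log2 fold change against the 52 classes was 8.45 ± 0.35 (SE; adjusted p = 1.1e-50) for gcy-4, 7.67 ± 0.40 (adjusted p = 4.4e-40) for gcy-3, 6.92 ± 0.23 (adjusted p = 2.3e-65) for gcy-22 and 6.81 ± 0.34 (adjusted p = 2.3e-42) for gcy-5.

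The remaining right-biased genes were low. gcy-1 was at 7.95, 2.698, 4.97 and 4.52 CPM, with 1.29 CPM in RIA as the next class mean. gcy-2, annotated as a pseudogene, was at 1.73, 0, 0.311 and 0 CPM, near or below the limit that a count of 0 allows, and its call was lost without ASERr144. gcy-1, gcy-2 and gcy-3 are neighbours on chromosome II, as are gcy-4 and gcy-5, and how the authors' counting treated reads shared by similar copies is not given in the sources used here. Against ASEL, 5 of the 5 right-biased genes that could be tested were higher, beside 6.12% of all tested genes, and 1 was when the spread was estimated over all libraries. The log2 fold change there was 6.57 ± 0.82 for gcy-3 (adjusted p = 0.00016), 4.33 ± 0.47 for gcy-4 (adjusted p = 4.5e-05), 3.21 ± 0.43 for gcy-5 (adjusted p = 0.00028) and 2.4999 ± 0.49 for gcy-22 (adjusted p = 0.0045).

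The 4 left-biased cyclases gcy-6, gcy-7, gcy-14 and gcy-20 were near the detection limit in ASER. gcy-14, a sodium and alkaline pH receptor of ASEL, was at 1.73, 0.899, 0 and 3.77 CPM in ASER and at 525, 620 and 511 CPM in ASEL. gcy-7 was at 0, 0.899, 0 and 5.65 CPM in ASER and at 202.1, 197.004 and 169 CPM in ASEL. The groups did not overlap for any of the 4 genes (background 7.08% of tested genes), all of which were lower in ASER than in ASEL, beside 5.27% of tested genes. Their fold changes on the log2 scale were -8.64 ± 0.60 for gcy-14 (adjusted p = 1.4e-06), -7.08 ± 0.74 for gcy-7 (adjusted p = 3.5e-05), -6.68 ± 0.58 for gcy-20 (adjusted p = 7.9e-06) and -4.12 ± 0.77 for gcy-6 (adjusted p = 0.0033). None of the 4 passed the test in either direction against the other 52 or the other 9 classes.

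Of the other 17 receptor cyclases, 7 were higher in ASER than in the 52 classes and none lower, beside 14.4% and 3.89% of all tested genes. With the other libraries as 1 group 2 were higher. gcy-19 (WBGene00001544, chromosome II, 3250975 to 3259354, minus strand) was the most abundant receptor cyclase of ASER, at 5053, 2353, 3098 and 2170 CPM, each value above the highest one of any other class. Over gene length it stood at 850 CPM per kilobase of exon, against 230 for gcy-22. ASEL was next at 1726, 808 and 554 CPM, and the difference from ASEL missed the threshold (log2 1.36 ± 0.42, adjusted p = 0.056). gcy-13 was at 13.5, 12.6, 9.32 and 6.403 CPM in ASER and had no count in the 3 ASEL libraries, at least 5.11-fold higher in ASER against 3 counts per library (adjusted p = 0.00067). gcy-17 went the other way, at 1.73, 1.80, 1.55 and 1.51 CPM in ASER and 175.5, 90.7 and 78.9 CPM in ASEL (adjusted p = 1.3e-06). gcy-12 and gcy-28, which are broadly present in neurons, were at 110 to 212.3 CPM and 185.3 to 391 CPM in ASER and did not pass the test in any of the 3 comparisons.

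**Figure D2:**
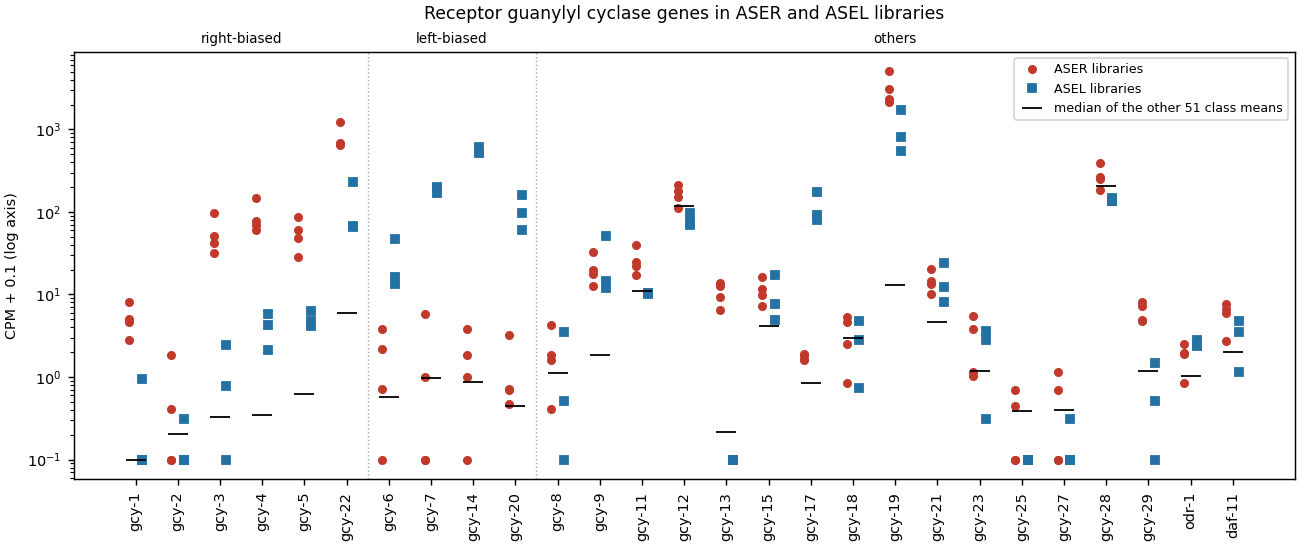
Levels of 27 receptor guanylyl cyclase genes in the 4 ASER libraries (red circles) and the 3 ASEL libraries (blue squares), as CPM + 0.1 on a log axis, with the median of the other 51 class means as a black bar. gcy-1, gcy-3, gcy-4, gcy-5 and gcy-22 lie higher in ASER, while gcy-6, gcy-7, gcy-14, gcy-20 and gcy-17 lie higher in ASEL.

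Downstream of the cyclases, 10 of 14 genes for cGMP-gated channel subunits, phosphodiesterases and cGMP-dependent kinases were higher in ASER than in the other 52 classes and none was lower, beside 14.4% and 3.89% of all tested genes. 1 was higher with the other libraries as 1 group. tax-4, a pore subunit needed for salt taste, was at 81.6, 31.2, 31.7 and 18.5 CPM, and its partner tax-2 at 32.5, 11.7, 33.9 and 13.9 CPM. The median class mean was 1.11 CPM for tax-4 and 0.945 CPM for tax-2. Both passed the test against the 52 classes (log2 4.49 ± 0.35 and 3.90 ± 0.40, adjusted p = 1.5e-24 and 3.7e-16) and neither passed it against the 9 amphid classes or against ASEL. The phosphodiesterase genes pde-1 (710, 436, 633 and 247 CPM) and pde-5 (37.3, 27.9, 36.7 and 22.6 CPM) were higher in all 3 comparisons. Every ASER library lay above the ASEL libraries for both, which held 157.5 to 207.4 CPM of pde-1 and 6.14 to 8.08 CPM of pde-5. The libraries lay apart in this way for 15.4% of the genes tested against ASEL. Of 12 listed genes tested against ASEL, 3 were higher, beside 6.12% of all tested genes, and 1 was without ASELr150 or without ASELr151. None was with the spread estimated over all libraries. Against the 9 amphid classes 3 of the 14 genes were higher, pde-1, pde-5 and pkg-2, beside 7.68% of all tested genes. Without ASERr144 or without ASERr146 1 was. egl-4, the main cGMP-dependent kinase, was at 818, 455, 559 and 297 CPM and passed no test.

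Among 14 regulators of ASE identity and asymmetry, of which 12 were tested, 4 were higher and 1 lower than in the 52 classes, beside 14.4% and 3.89% of all tested genes. With the other libraries as 1 group 2 were higher. che-1 (WBGene00000483, chromosome I, 6517529 to 6520918, minus strand), the selector gene of both ASE neurons, was at 143.8, 114, 143.6 and 46.3 CPM, and at 38.1, 31.4 and 54.4 CPM in ASEL. Outside ASE the highest class mean was 7.80 CPM in RIA, followed by 1.005 CPM in AVL. Its log2 fold change against the 52 classes was 10.21 ± 0.32 (adjusted p = 1.8e-58). This value depends on the prior count, since several classes, such as ADL and AIY, held no count. ASERr147 lay within the ASEL range, and the difference from ASEL, log2 1.20 ± 0.35 (adjusted p = 0.041), was kept under 5 of 13 alternatives. ceh-36, a homeobox factor of ASE and AWC neurons, was at 265, 248, 306 and 127 CPM and did not pass the test against ASEL, which held 234, 274 and 447 CPM.

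Regulators of the right-cell and left-cell programs differed between the partners in opposite directions. cog-1, a homeobox gene of the right-cell program, was at 48.1, 48.3, 48.8 and 28.2 CPM in ASER and 5.77, 14.997 and 14.4 CPM in ASEL. fozi-1, a zinc finger gene of the right-cell program, was at 110, 83.9, 121.8 and 121.7 CPM in ASER and 4.62, 18.4 and 12.6 CPM in ASEL. Neither gene's groups overlapped, and both were higher in ASER (log2 1.62 ± 0.35, adjusted p = 0.0072, for cog-1 and 2.97 ± 0.36, adjusted p = 0.00014, for fozi-1). Of all genes tested against ASEL, 15.4% lay higher and 7.08% lower in ASER without overlap. Of 10 listed regulators tested against ASEL, 3 were higher and 2 lower, beside 6.12% and 5.27% of all tested genes. With the spread estimated over all libraries, 1 of the 3 kept its call. die-1, the zinc finger gene at the head of the left-cell program, was at 19.02, 19.5, 14.6 and 24.5 CPM in ASER and 152.4, 111.1 and 90.01 CPM in ASEL. lim-6, a LIM homeobox gene of the left cell, was at 2.42, 5.99, 2.18 and 2.64 CPM in ASER and 518, 275 and 295 CPM in ASEL. Both were lower in ASER without overlap, by log2 -2.80 ± 0.32 (adjusted p = 7.4e-05) and -6.97 ± 0.44 (adjusted p = 1.2e-06).

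Of 90 tested homeobox genes, 13 were higher and 5 lower than in the 52 classes, close to the backgrounds of 14.4% and 3.89%. With the other libraries as 1 group 3 were higher, beside 3.64% of all genes tested in that fit. The 5 lower calls fell to between 1 and 3 without any 1 ASER library. dsc-1, a paired-like homeobox gene, was at 1294, 1302, 750 and 478 CPM, with 314 CPM in ASEL as the next class mean and a median class mean of 1.09 CPM. ceh-23 was at 91.6, 67.7, 38.2 and 108.9 CPM in ASER and 31.2, 7.498 and 4.19 CPM in ASEL, but AFD held a mean of 2813 CPM. lsy-22, which encodes a Groucho-type cofactor named for its role in ASE asymmetry, was at 21.8, 24.3, 21.8 and 19.2 CPM and was the 1 regulator of the list that was lower than in the 52 classes (log2 -1.41 ± 0.32, adjusted p = 0.00029).

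Of 40 insulin-like peptide genes, 18 were at 10 CPM or more in every ASER library and 12 had an ASER mean under 1 CPM. Of 36 tested, 25 were higher in ASER than in the other 52 classes and 18 than in the other 9 amphid classes, and none was lower in either comparison, beside 14.4% and 7.68% of all tested genes higher. 12 were higher with the other libraries as 1 group. Their summed level was 13134, 9847, 14277 and 7541 CPM, the third highest of the 53 classes, where ASI held the most at 66198 CPM and ASEL held 3597 to 4142 CPM. daf-28, an insulin-like gene that promotes reproductive growth, was at 4230, 2936, 4058 and 1518 CPM, far below the ASI mean of 61571 CPM and above the 277 to 365 CPM of ASEL. ins-4 (chromosome II, 5996366 to 5997008, plus strand) was at 1991, 1077, 1947 and 714 CPM and ins-3 (chromosome II, 5990099 to 5990768, minus strand) at 1125, 656, 1541 and 621 CPM. ASEL held at most 10.3 CPM of ins-4 and 8.08 CPM of ins-3, so the groups lay far apart. ASER had the highest class mean of both genes. The log2 fold change against ASEL was 7.32 ± 0.50 for ins-4 and 7.58 ± 0.53 for ins-3 (adjusted p = 1.4e-06 for each).

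ins-1, an insulin-like gene known for its part in salt chemotaxis learning, was at 1107, 1180, 1617 and 527 CPM in ASER and 31.2, 42.9 and 14.9 CPM in ASEL, with AIN the highest class at 1562 CPM. Others were shared by the partners. ins-22 was at 1057, 903, 1216 and 1075 CPM in ASER and 339, 532 and 854 CPM in ASEL, and ins-23 was at 479, 481, 609 and 792 CPM in ASER and 432, 260 and 344 CPM in ASEL. For these genes the next class after ASER was ASEL, the median class mean was 1.38 and 0.364 CPM, and neither passed the test between the partners. Between ASER and ASEL, 9 of 24 tested insulin-like genes were higher in ASER and 3, ins-27, ins-30 and ins-35, were lower. These counts stand beside 6.12% and 5.27% of all tested genes. With the spread estimated over all libraries 4 were higher and none lower. ins-30 was at 426, 446, 449 and 228.3 CPM in ASER and 1112, 1572 and 922 CPM in ASEL.

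Among 70 tested neuropeptide-like protein (nlp) genes, 28 were higher than in the 52 classes and 31 than in the 9 amphid classes, with none lower, beside 14.4% and 7.68% of all tested genes higher. 11 were higher with the other libraries as 1 group. nlp-3 was the most abundant peptide gene, at 9972, 7037, 11020 and 5241 CPM, and was shared with ASEL at 5267, 7093 and 7804 CPM (log2 0.10 ± 0.27, adjusted p = 0.88). nlp-59 (WBGene00008522, chromosome V, 14971436 to 14972419, plus strand) separated the partners, at 3392, 2789, 3956 and 2167 CPM in ASER and 71.6, 85.2 and 87.3 CPM in ASEL. Every ASER library exceeded every library of the other classes for nlp-59, whose highest value elsewhere was 677 CPM in RIAr71. Its log2 fold change was 7.47 ± 0.21 against the 52 classes (adjusted p = 1.3e-74) and 5.03 ± 0.31 against ASEL (adjusted p = 1.2e-06).

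nlp-5, nlp-7, nlp-57 and nlp-60 showed the same order of the partners. nlp-7 was at 1967, 1534, 2736 and 885 CPM against 110 to 140.9 CPM in ASEL. nlp-57 was at 1226, 1138, 1668 and 858 CPM against 15.01 to 19.8 CPM, and nlp-5 at 850, 498, 944 and 334 CPM against 1.15 to 11.6 CPM. nlp-60 was at 504, 401, 441 and 178.9 CPM against 1.36 to 16.2 CPM in ASEL. No ASER library overlapped with ASEL for these genes, and each was higher in all 3 comparisons. Of all genes tested against ASEL, 15.4% lay higher in ASER without overlap. In all, 16 of 62 tested nlp genes were higher and 1 lower in ASER than in ASEL, beside 6.12% and 5.27% of all tested genes. With the spread estimated over all libraries 8 were higher.

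Of 30 tested FMRFamide-like peptide (flp) genes, 17 were higher than in the 52 classes and 19 than in the 9 amphid classes, and none was lower, beside 14.4% and 7.68% of all tested genes higher. The 17 became 10 without ASERr145 and 1 with the other libraries as 1 group, beside 3.64% of all genes tested in that fit. Against ASEL, 2 of 30 were higher and 1 lower, beside 6.12% and 5.27%. Neither of the 2 was higher with the spread estimated over all libraries. flp-6 was at 7418, 4086, 10134 and 2206 CPM in ASER and 2227, 3475 and 3457 CPM in ASEL, and flp-16 at 2530, 1956, 2854 and 1277 CPM in ASER and 1704, 2242 and 1767 CPM in ASEL. Both overlapped between the partners and passed no test there. flp-9 was higher in ASER than in ASEL, at 818, 641, 787 and 342 CPM against 111.99 to 130 CPM. flp-20 was lower, at 32.8, 40.8, 114 and 73.1 CPM against 339, 438 and 341 CPM. hen-1, which encodes a secreted protein used in sensory integration and learning, was at 170, 114, 197.1 and 114.9 CPM in ASER and 10.4, 11.6 and 12.98 CPM in ASEL, and was higher in all 3 comparisons.

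**Figure D3:**
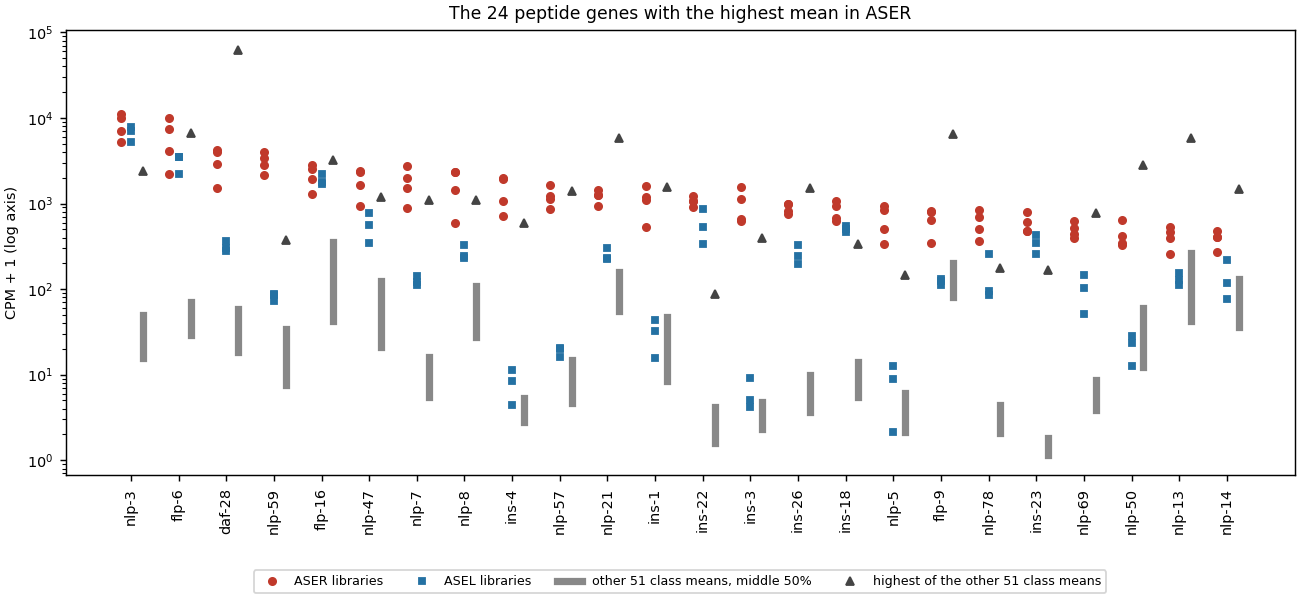
The 24 flp, nlp and insulin-like genes with the highest mean in ASER, as CPM + 1 on a log axis; red circles are ASER libraries, blue squares ASEL libraries, grey bars the middle 50% of the other 51 class means and triangles the highest of them. nlp-3, flp-6 and flp-16 are shared with ASEL, while ins-4, ins-3, nlp-57 and nlp-5 stand apart from it.

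Of 10 genes of peptide processing and release, 5 were higher and 1 lower than in the 52 classes, beside 14.4% and 3.89% of all tested genes. The 5 became 3 with limma-voom, without ASERr144 and without ASERr146, and 0 with the other libraries as 1 group. egl-3, the main proprotein convertase of neuropeptides, was at 6044, 3298, 5272 and 2138 CPM (log2 1.12 ± 0.37, adjusted p = 0.019), and its chaperone gene sbt-1 at 3599, 2706, 4434 and 1667 CPM. pghm-1, an amidating enzyme gene, was at 3656, 2487, 3575 and 1741 CPM, second of the 53 classes. aex-5, another proprotein convertase, was the exception and was lower in all 3 comparisons. It was at 10.7, 14.7, 12.12 and 17.3 CPM in ASER and 485, 390 and 239 CPM in ASEL, with a median class mean of 203.6 CPM. Its log2 fold change was -3.79 ± 0.60 against the 52 classes (adjusted p = 4.4e-08) and -4.96 ± 0.36 against ASEL (adjusted p = 1.7e-06). Of 12 genes present in all neurons, 5 were higher in ASER than in the 52 classes and none lower, beside 14.4% and 3.89%. The 5 became 3 without ASERr144 and 0 with the other libraries as 1 group. Against ASEL 5 of the 12 were higher, beside 6.12% of all tested genes, and 0 with the spread estimated over all libraries. Their median log2 fold change against ASEL was 0.77, and that of the non-neuronal markers was -0.69. The part of this difference in other calls against ASEL was not tested.

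Of the tested peptide receptor genes, 38 (36.5%) were higher in ASER than in the 52 classes and 1 was lower, beside 14.4% and 3.89% of all tested genes, and 17 were higher with the other libraries as 1 group. npr-34 was the most abundant, at 3840, 2864, 3359 and 1444 CPM, with ASEL next at 1747, 1495 and 1441 CPM. npr-1, the neuropeptide receptor known for aggregation behaviour, was at 150, 99.2, 94.2 and 31.6 CPM in ASER and 2.31 to 3.56 CPM in ASEL, and ASER had its highest class mean. ntr-1, the nematocin receptor known for gustatory associative learning, averaged 229.9 ± 64.9 CPM (SD, n = 4) in ASER and was at 64.7, 14.3 and 31.8 CPM in ASEL. The ASER libraries lay above all ASEL libraries for npr-1 and ntr-1, and both genes were higher in all 3 comparisons. npr-31, npr-7 and npr-15 did the same, while npr-11 (376, 348, 299 and 141.6 CPM), sprr-2 (214.7, 131.3, 160.7 and 128 CPM) and npr-34 were higher than in the 52 and the 9 classes and passed no test against ASEL. Against ASEL 21 of 75 tested peptide receptor genes were higher, beside 6.12% of all tested genes. With the spread estimated over all libraries 5 were. Of all genes tested against ASEL, 15.4% lay higher in ASER without overlap. pdfr-1, the receptor of pigment-dispersing factor, was at 844, 481, 418 and 382 CPM, second of the 53 classes.

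Among 20 amine receptor genes, 6 were higher than in the 52 classes and none lower, beside 14.4% and 3.89% of all tested genes. 1 was higher with the other libraries as 1 group. dop-4, a dopamine receptor, was at 91.3, 75.5, 49.7 and 41.1 CPM, above the 10.9 to 19.3 CPM of ASEL. tyra-3, a tyramine receptor, was at 325, 233, 181.8 and 136.3 CPM and ser-3, an octopamine receptor, at 75.4, 69.2, 45.7 and 56.9 CPM. All 3 genes were higher in each of the 3 comparisons. Against ASEL 6 of the 20 amine receptor genes were higher, beside 6.12% of all tested genes. The 6 became 2 without ASERr144, without ASERr145 or without ASELr151. None was higher with the spread estimated over all libraries. mod-5, the serotonin reuptake transporter, was at 380, 239, 218.8 and 146.9 CPM in ASER and 3.46, 4.09 and 11.1 CPM in ASEL, the third highest of the 53 classes (log2 against ASEL 4.90 ± 0.45, adjusted p = 1.1e-05). eat-4, the vesicular glutamate transporter that makes ASER a glutamatergic neuron, was at 242, 113, 144.5 and 67.4 CPM, above the median class mean of 18.2 CPM and 13th of the 53 classes. eat-4 passed the test against the 52 classes (log2 2.30 ± 0.34, adjusted p = 6.2e-09) and neither other comparison. Its call was lost with the other libraries as 1 group. unc-17, of acetylcholine neurons, was at 24.2 to 56.6 CPM and unc-25, of GABA neurons, at 29.2 to 71.9 CPM, near their median class means of 31.6 and 36.7 CPM.

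Genes of the cilium, the antenna on which the salt receptors sit, were high. Of 48 tested, 44 were higher and 1, hyls-1, was lower than in the 52 classes, beside 14.4% and 3.89% of all tested genes, with a median log2 fold change of 2.64 beside -0.25. With the other libraries as 1 group, 1 (2.083%) was higher and 1 lower, beside 3.64% and 0.789% of all genes tested in that fit. The share of higher genes was thus not above the background there. The call of hyls-1 was lost without ASERr144 and without ASERr147. Against the 9 amphid classes 3 were higher and 2 lower, near the 7.68% and 2.16% of all tested genes, with a median of -0.13 beside -0.21. che-3, the dynein heavy chain of ciliary transport, was at 319, 194.8, 230 and 198.9 CPM and bbs-1 at 163.5, 108.5, 140.8 and 64.03 CPM. Both were higher than in the 52 classes, and neither passed the test against the 9 amphid classes. tba-5, a ciliary tubulin, was at 419, 206.2, 515 and 136.3 CPM and was higher in all 3 comparisons, the last against 66.8 to 84.4 CPM in ASEL. daf-19, the RFX factor that drives ciliary genes, was at 348, 191.8, 373 and 197.7 CPM and was also higher in all 3, though its call against the 9 classes was lost without ASERr144 or without ASERr146. Of 47 cilium genes tested against ASEL, 7 were higher, beside 6.12% of all tested genes. The 7 became 2 without ASELr150, and none was higher with the spread estimated over all libraries. dyf-6 was at 19.02, 15.9, 26.1 and 5.65 CPM, higher than in the 52 classes and lower than in the 9.

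Few chemoreceptor genes reached high levels. Of 1610 genes of the chemoreceptor families, 999 were tested, 22.1% of these were higher than in the 52 classes, beside 14.4% of all tested genes, and none lower, but 10 were at 10 CPM or more in every ASER library and 1505 had an ASER mean under 1 CPM. The others had too few counts to be tested. With limma-voom 51 were higher (10.9% of all tested genes were), and 14.31% of the 999 were without ASERr145. With the other libraries as 1 group 9 were higher, beside 3.64% of all genes tested in that fit. Against the 9 amphid classes 46 (4.605%) were higher and 4 lower, below the 7.68% and 2.16% of all tested genes, and with limma-voom 25 were higher and 107 lower. srsx-17 (chromosome V, 5927647 to 5930417, plus strand) led them, at 622, 290, 501 and 160 CPM in ASER and 2.31, 0 and 1.05 CPM in ASEL. The motor neuron AVL was next at a mean of 304 CPM, so the ASER range overlapped with another class. srxa-5 was at 26.97, 31.5, 43.8 and 12.4 CPM, above every other library, with the next class mean at 1.51 CPM in RIA. srg-64 was at 87.5, 85.4, 84.5 and 26.7 CPM in ASER, lower than the 282, 262 and 247 CPM of ASEL and far from the AFD mean of 1002 CPM.

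Signalling genes linked to salt learning were present at moderate to high levels. In the insulin pathway, 5 of 11 genes were higher than in the 52 classes and none lower, beside 14.4% and 3.89% of all tested genes. 2 were higher with the other libraries as 1 group. daf-16, the FOXO factor, was at 2132, 1124, 1401 and 702 CPM in ASER and 288, 381 and 364 CPM in ASEL, akt-1, its kinase, at 456, 257, 437 and 238 CPM and 48.5, 70.9 and 78.9 CPM, and ist-1, an insulin receptor substrate gene, at 387, 273, 355 and 318 CPM and 87.8, 68.8 and 60.3 CPM. The partners did not overlap for these 3 genes, and 15.4% of all genes tested against ASEL lay higher in ASER without overlap. Each of the 3 was higher in all 3 comparisons, though 1 of the 3 calls against the 9 classes was left without ASERr144 or without ASERr146. daf-2, the insulin receptor, was at 1130, 690, 545 and 679 CPM and casy-1, the calsyntenin that carries a receptor isoform to the synapse, at 4205, 2539, 3349 and 2024 CPM. Both passed the test against the 52 classes and not against the 9 or against ASEL.

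In the diacylglycerol pathway 4 of 13 genes were higher, dgk-3, pkc-2, tpa-1 and ncs-1, and 1, pkc-3, was lower than in the 52 classes, beside 14.4% and 3.89% of all tested genes, with a median log2 fold change of 0.15. The 4 became 2 without ASERr144 or without ASERr146 and 0 with the other libraries as 1 group. pkc-1, a protein kinase C that sets the direction of salt chemotaxis in ASER, was at 245, 172.6, 173.1 and 148 CPM, below its median class mean of 314 CPM, and passed no test. egl-30, the Gq gene upstream of it, was at 1641, 1185, 1319 and 635 CPM and goa-1, the Go gene, at 1036, 642, 666 and 312 CPM, and neither passed a test. None of the 13 genes passed the test between ASER and ASEL.

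Among G protein genes and their regulators, 8 of 36 were higher and 1 lower than in the 52 classes, beside 14.4% and 3.89% of all tested genes. Against the 9 amphid classes 4 were higher and 8 (22.2%) lower, beside 7.68% and 2.16%. With the other libraries as 1 group 1 was higher than in the 52 classes, beside 3.64% of all genes tested in that fit. The 8 became 5 without ASERr145. The lower ones included odr-3, gpa-2, gpa-3 and rgs-3, which work in odour and taste signalling of other amphid neurons. rgs-4 was the most abundant of those that rose, at 1539, 1031, 1389 and 535 CPM, and gpa-7 was at 302, 134.6, 230.9 and 99.4 CPM. Of 33 tested voltage-gated channel genes, 12 were higher than in the 52 classes and none was lower, beside 14.4% and 3.89% of all tested genes. With the other libraries as 1 group 1 was higher, beside 3.64%. The 12 included the potassium channel genes kvs-5 (395, 201.1, 190 and 110.7 CPM), unc-103 (839, 351, 487 and 302 CPM) and shw-3 (120, 63.5, 73.98 and 21.5 CPM). These 3 were also higher than in the 9 amphid classes and than in ASEL, where no library overlapped with ASER. Of all genes tested against ASEL, 15.4% lay higher without overlap. Of 30 channel genes tested against ASEL, 5 were higher, beside 6.12% of all tested genes. The 5 became 3 without ASELr150 and 2 with the spread estimated over all libraries. egl-19, the L-type calcium channel, was at 149.2 to 274 CPM and passed no test. trp-2, a TRPC channel gene, was at 1661, 982, 841 and 522 CPM and ASER had its highest class mean, with PVQ next at 941 CPM. Among 34 globin genes, 13 were higher than in the 52 classes, led by glb-29 at 890, 581, 1420 and 339 CPM, beside 14.4% of all tested genes. With the other libraries as 1 group 4 globin genes were higher, beside 3.64%.

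In all, 41 genes (0.201% of those tested) were called higher, reached 10 CPM in every ASER library and exceeded there the highest single value of the other 52 classes. These comprised 40 protein-coding genes and 1 pseudogene. The largest ratio to the next class was that of C08E8.5 (WBGene00007441, chromosome V, 18359818 to 18359988, minus strand), at 288, 180, 412 and 86.3 CPM in ASER. Its mean was 38.1 times the next class mean, 6.35 CPM in RIA, and ASEL held 0, 0.682 and 0.837 CPM. The RIA mean rests on RIAr73 at 34.9 CPM, since the other RIA libraries held at most 2.94 CPM. Y51A2B.8 (chromosome V, 18379119 to 18379289, plus strand) was at 2927, 2257, 4034 and 2107 CPM, 20.9 times the ASEL mean of 135.2 CPM. C08E8.9 (chromosome V, 18364858 to 18365037, plus strand), which lies between these genes, was at 750, 703, 1125 and 598 CPM in ASER and 363, 382 and 247 CPM in ASEL. C09G1.5 reached 11698, 8513, 14678 and 6303 CPM in ASER, against 1270, 1610 and 2117 CPM in ASEL. None of these 4 genes has a named function in the annotation used.

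The other genes with the largest ratios were srxa-5, idpp-8, nlp-59, F42A8.1, gcy-4, C25E10.17, gcy-22, H35N09.1 and F37C12.14. idpp-8 (chromosome II, 10315552 to 10320029, plus strand) was at 147.3, 125.9, 143.6 and 130.7 CPM in ASER and 0, 0 and 0.419 CPM in ASEL. It overlaps gcy-5 on the opposite strand and M02G9.4 on the same strand, and whether the counting used strand is not given in the sources used here, so reads from these genes cannot be told apart. gcy-22 overlaps T03D8.6 on the same strand. H35N09.1 was at 768, 734, 586 and 389 CPM, with ASI next at 99.1 CPM. Of the 41 genes, ASERr147 held the lowest of the 4 ASER levels for 26 and the highest for none, while ASERr144 and ASERr146 held the highest for 19 and 21. ASERr147 thus had the highest level of most of the 40 non-neuronal markers and the lowest level of most of the 41 genes. The part of those transcripts in this order was not tested.

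Per length, the most abundant protein-coding genes of ASER included Y51A2B.8, nlp-3, C09G1.5, flp-6, nlp-59 and K07C5.9, together with genes of ribosomal proteins, rpl-41.2, rla-0 and rpl-7, and Y37E3.8. Against the other 9 amphid classes, the largest fold changes of genes above every library of those classes were those of C08E8.5, Y51A2B.8, C08E8.9, C09G1.5, srxa-5 and srsx-17.

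Some genes had their lowest class mean in ASER. Of the 794 lower genes, 52 had a mean over the class means of at least 20 CPM and the lowest class mean in ASER. The largest folds were those of ule-4, Y58A7A.5, slc-17.5, rips-1, mig-10 and plst-1. slc-17.5, of a transporter family that includes the vesicular glutamate transporters, was at 1.38, 1.80, 2.49 and 2.64 CPM (log2 -2.79 ± 0.51, adjusted p = 2.5e-06), with a highest class mean of 198.7 CPM in DVB. mig-10, a lamellipodin gene of axon guidance, was at 17.6, 21.3, 13.4 and 33.1 CPM (log2 -1.79 ± 0.36, adjusted p = 2.6e-05). plst-1, a plastin gene, was at 13.8, 17.7, 16.2 and 12.8 CPM (log2 -1.63 ± 0.27, adjusted p = 3.0e-07). ule-4 was at 0, 0, 0 and 1.13 CPM, so its fold change depends on the prior count. The calls of ule-4 and rips-1 were lost without ASERr144, without ASERr145, without ASERr146 and with the other libraries as 1 group. That of rips-1 was also lost with limma-voom (adjusted p = 0.104). Those of Y58A7A.5 and mig-10 were lost only with the other libraries as 1 group.

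Between the partners, 616 genes were higher and 530 lower in ASER. Their libraries did not overlap for 1549 genes higher in ASER (15.4% of those tested) and 712 lower (7.08%). T01G6.1 (117, 61.1, 96.4 and 32.02 CPM) and F13B12.3 (103.4, 47.7, 63.7 and 12.8 CPM) had no count in ASEL and were at least 37.4-fold and 27.8-fold higher in ASER against 3 counts per library. The largest other fold changes toward ASER were those of idpp-8, srsx-17, C08E8.5 and gcy-13, and toward ASEL those of gcy-14, K06H6.2, gcy-7, lim-6, F13A2.2 and gcy-20. K06H6.2 had no count in ASER and was at 12.7, 6.82 and 25.96 CPM in ASEL, at least 15.2-fold lower in ASER. The counts depended on single libraries. Without ASERr147 they were 908 higher and 892 lower, without ASELr151, the deepest ASEL library, 309 and 307, and with the spread estimated over all libraries 0.901% and 0.539% of tested genes.

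Of 7 tested genes often carried on transgenes, 3 were lower and 1 was higher in ASER than in ASEL, beside 5.27% and 6.12% of all tested genes. lin-15B was at 189.1, 130.7, 120.9 and 86.3 CPM in ASER and 4093, 3083 and 2465 CPM in ASEL, and lin-15A at 60.9, 34.5, 33.3 and 32.02 CPM in ASER and 2149, 1814 and 1127 CPM in ASEL. unc-54 was at 1288, 1256, 866 and 1748 CPM in ASER and 14489, 7553 and 8187 CPM in ASEL. No ASER library overlapped with ASEL for these 3 genes, beside 7.08% of all tested genes that lay lower in ASER without overlap. The gene that went the other way was unc-119, a rescue marker, whose higher call was lost without ASERr144, without ASERr146 and without any 1 ASEL library. Of the non-neuronal markers 10 of 32 tested were lower in ASER than in ASEL and none higher, beside the same backgrounds, with unc-54, 5 hypodermis genes and 4 germline genes among the 10. Without ASELr151 none of the 5 and 1 of the 4 were lower. What part strains, transgenes or other cells have in the calls between the partners was not tested.

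**Figure D4:**
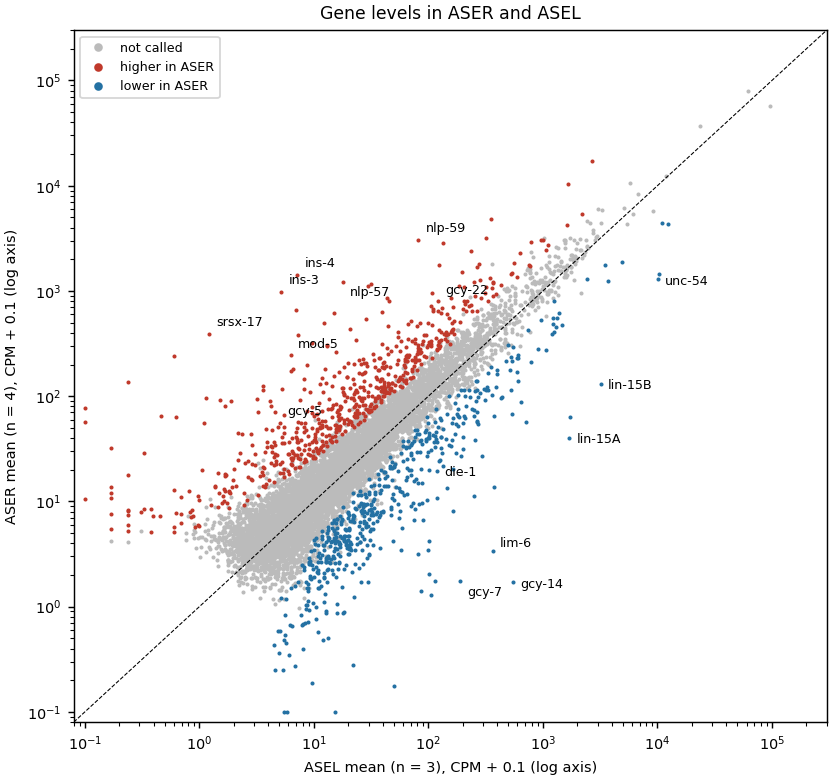
Mean levels of tested genes in ASEL (horizontal, n = 3) and ASER (vertical, n = 4) as CPM + 0.1 on log axes; red points were called higher and blue points lower in ASER, grey points were not called, and the dashed line marks equal levels. ins-3, ins-4, srsx-17, nlp-57 and nlp-59 lie far above the line and gcy-14, gcy-7, lim-6 and lin-15A far below it.

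Marker lists of other amphid neurons and of BAG summed to less in ASER than in the highest class of each list. The 5 AWC markers summed to 40.1 to 110.7 CPM, against 2823 CPM in AFD, the highest class. In both classes most of this sum came from ceh-23. The 4 AFD markers summed to 9.34 to 17.98 CPM, against 8087 CPM in AFD, and the 4 ASK markers to 0 to 2.10 CPM, against 349 CPM in ASK. The 3 AWA markers summed to 7.15 to 31.2 CPM, against 4526 CPM in AWA, and the 4 BAG markers to 57.3 to 133 CPM, against 2299 CPM in BAG. The 3 ASI markers summed to 287 to 469 CPM, against 11862 CPM in ASI, and the 2 ASG markers to 23.001 to 35.7 CPM, against 4338 CPM in ASG. The 3 ASJ markers, which include daf-28, summed to 1521 to 4232 CPM. The 3 ASH markers summed to at most 3.00 CPM, the 4 ADL markers to at most 4.80 CPM and the 2 AWB markers to at most 3.60 CPM. By these sums ASER ranked 3 of 53 classes for ADL and ASJ markers and 4 for ASI, ASG and AWA markers. It ranked 7 for AWC, AFD and BAG markers, 18 for ASK and ASH markers and 19 for AWB markers. Against the 52 classes 2 of 3 ASI, 2 of 2 ASG and 2 of 3 ASJ markers were higher, beside 14.4% of all tested genes. Each other list had 1 higher, except AWB with 0. The part of such transcripts in the calls was not tested.

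**Figure D5:**
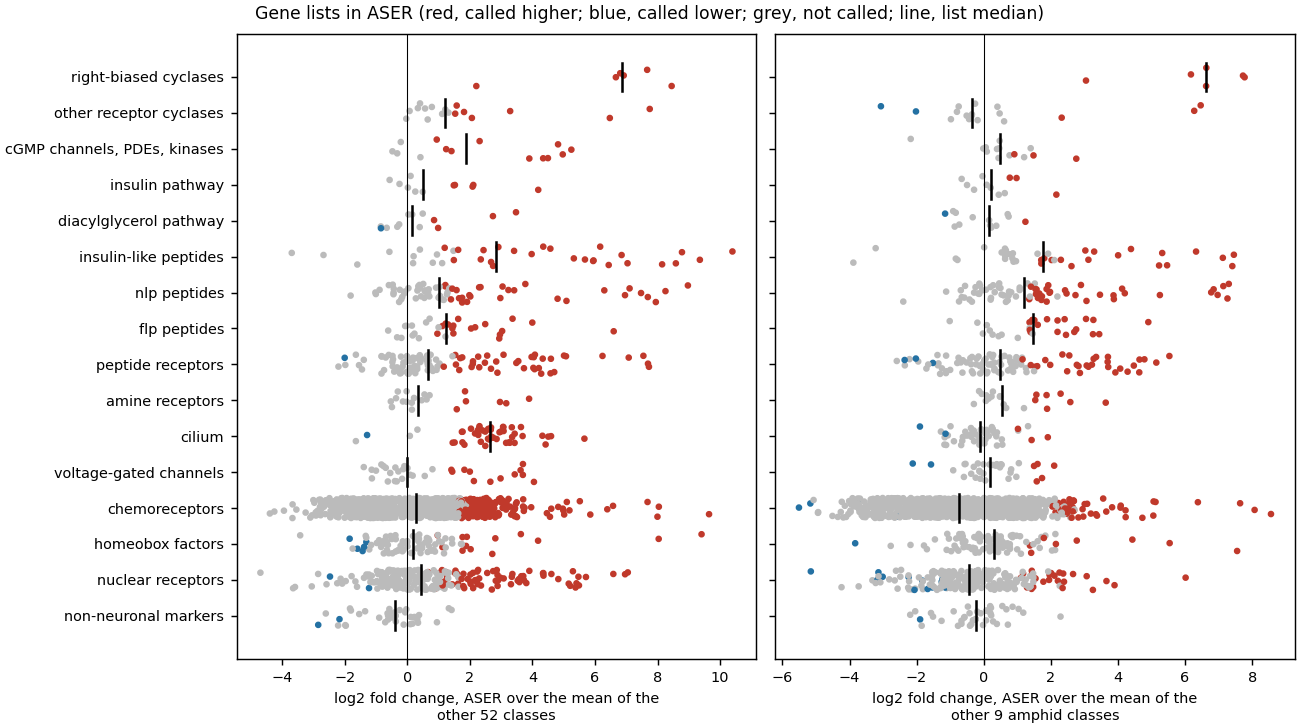
Log2 fold change of each tested list member in ASER over the mean of the other 52 classes (left) and of the other 9 amphid classes (right); red points were called higher, blue lower and grey not called, and black lines are list medians. Cilium genes lie to the right on the left-hand side and around 0 on the right-hand side, whereas right-biased cyclases lie far to the right on both.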

How the data were processed

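RNA from sorted neurons was sequenced from libraries made with the Tecan SoLo Ovation kit, which the labels' protocols name for every library. The authors deposited 1 table of raw read counts per gene (46927 genes, WormBase release 289 in its name) without normalization. Per the submitters' processing notes, STAR 2.7.7a, UMI-tools 1.1.4, Subread 2.0.3 and featureCounts were used, with no role or order given; strand setting, use of molecular identifiers and treatment of multi-mapped reads are not given in the sources used here. Intervals and limits therefore cover counting error only. Of the per-sample columns, 14 match no library analysed here and were not used. Pan-neuronal and all-cell references were not analysed here.

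Symbols were found for 97.1% of identifiers, and 99.8% had the same start and end in the Ensembl release 115 annotation of WBcel235, the build of the coordinates given. gcy-2 was matched by its coordinates. Genome and protein sequences were not used here.

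Counts were filtered with filterByExpr (20427 genes kept), scaled by TMM and fitted with edgeR 4.0.16 (quasi-likelihood, trended dispersion, 1 mean per class, all 205 libraries) in R 4.3.3. Contrasts weight classes equally on the log2 scale. ASER and ASEL were tested in their 7 libraries alone (10059 genes). P-values were adjusted by Benjamini-Hochberg over all tested genes, with calls under 0.05. SE is the fold change over the root of F. CPM values use the TMM-scaled sizes of the 205-library fit throughout. The procedure was also run on simulated counts. There a gene had the same expected level in every class, except for genes changed in ASER, and the dispersion was fixed. Differences among the other classes and classes without counts were therefore not covered. Replicates differed beyond sampling noise, with a smallest chi-square per degree of freedom of 5.11 over replicate pairs of ASER and ASEL.

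Members, gene lists and naming rules were chosen with earlier results of these data known. Named genes were members of the lists; the 12 genes called higher with at least 10 CPM in every ASER library, above every other library, with the largest ratio to the next class; the 6 lower genes with the lowest class mean in ASER and a mean over the class means of at least 20 CPM with the largest fold; the 6 with the largest fold in each direction between the partners and against the 9 amphid classes; and the 10 highest per length. Named genes of the first kind were chosen from longer lists after their values were seen. Alternatives were RLE scaling, no filter, ribosomal RNA left out, each ASER or ASEL library left out, the 180 libraries whose description field also names the kit, other libraries as 1 group, 51 classes without ASEL, limma-voom 3.58.1 and DESeq2 1.42.0 (ASER against ASEL), and 2 RIA libraries left out.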

Additional observations from a re-analysis of the deposited data

Results flagged for a closer look

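In the genes named here, a single ASER library stood far from the other 3 in 10 cases, by the gap to its nearest neighbour over the range of the group. For independent values with a normal distribution, chance gives this in about 1 in 20 groups, a share not far below the one found here. The genes share the same 4 libraries and are not independent of one another. ASERr144 was the highest for gcy-22 (1233 CPM), lin-15A (60.9 CPM) and gcy-20 (3.11 CPM). ASERr145 was the highest for lim-6 (5.99 CPM). ASERr147 was the lowest for cog-1 (28.2 CPM), ins-30 (228.3 CPM) and srg-64 (26.7 CPM), which the other 3 libraries held at 48.1 to 48.8, 426 to 449 and 84.5 to 87.5 CPM. It was the highest for gcy-7 (5.65 CPM), rips-1 (9.42 CPM) and ule-4 (1.13 CPM).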

How the results depend on the processing

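Against the 52 classes, 14.4% of tested genes were higher, 3.64% with other libraries as 1 group and 9.24% without a filter. In the other direction 3.89% were lower, 0.789% with other libraries as 1 group, 1.51% without a filter and 1.61% to 2.37% without 1 ASER library. Against the 9 classes, 2.16% were lower, 0.673% without a filter, 3.52% with limma-voom and 0.891% to 1.14% without 1 ASER library; limma-voom also changed the share of calls that were higher from 78.01% to 64.9%. Against ASEL, 6.12% were higher and 5.27% lower, 0.901% and 0.539% in the fit of all libraries, 3.62% lower without a filter, and 2.96% to 9.22% and 2.94% to 9.06% without 1 library. Settings that leave out libraries test fewer samples; otherwise the cause was not tested. RLE scaling moved the median fold change of all genes by -0.10 and gave 1173 lower genes against the 52 classes. With other libraries as 1 group, 6 genes named here or in the lists reversed without passing the test: ceh-23 (-0.10), dyf-6 (-0.39), flp-20 (-1.47), gcy-29 (-2.99), lin-15B (-2.92) and unc-119 (-1.82). The median r between ASER libraries, 0.959, was 0.934 over the 2000 most variable genes and 0.914 as Spearman's rho. No paired analysis was possible because the replicate numbers of the labels are codes that no 2 classes share. Depth limits genes below about 1 CPM in ASER and, for ASELr149, below 3.46 CPM.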

Other observations

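Other families are given here by their counts against the other 52 classes, beside 14.4% of all tested genes higher and 3.89% lower. With the other libraries as 1 group, 3.64% of all genes tested in that fit were higher. Of 240 tested nuclear receptor genes, 71 were higher and 2 lower, and against the 9 amphid classes 23 were higher and 12 lower, beside 7.68% and 2.16%. With the other libraries as 1 group 13 nuclear receptor genes were higher than in the 52 classes. Against the 9 classes 15 were higher without ASERr144, and 7 and 6 were lower without ASERr145 and without ASERr146. Of 47 two-pore potassium channel genes, 2 were higher and 2 lower, and 1 was higher with the other libraries as 1 group. twk-14 was at 365, 201.1, 107.5 and 150 CPM, second of the 53 classes after AVL. Of 25 innexin genes, which form gap junctions, 1 was higher and 1 lower, and neither was with the other libraries as 1 group. Of 19 glutamate receptor genes, 2 were higher and none lower, and none was higher with the other libraries as 1 group. The chloride channel gene clh-1 was at 572, 299, 241 and 174.01 CPM in ASER and 157.04, 104.98 and 114 CPM in ASEL. The 7 soluble guanylyl cyclase genes, which bind oxygen in other neurons, summed to 4.04 to 15.2 CPM in ASER, against 1136 CPM in AVM, and none passed the test.

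ASER had the highest class mean of the 53 classes for 379 of 20427 tested genes. This is close to the 1 in 53 that equal shares would give each class, so the count alone does not set ASER apart. By list, ASER had the highest class mean for 8 of 40 insulin-like genes, 8 of 71 nlp genes and 5 of 6 right-biased cyclases. It also did for 8 peptide receptor genes, from a longer list.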
